A study of Ovis aries and Bos taurus with 10 samples.

Results

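KIT is a receptor tyrosine kinase of the cell surface, and KITLG, also called stem cell factor or KIT ligand, is the growth factor that binds it. Every probe set of the Affymetrix Bovine Genome Array whose annotation gave KIT or KITLG as its single symbol was taken, which came to 5 of 24016 probe sets, 4 for KIT and 1 for KITLG, or 2 of the 9155 genes named this way. In the mouse, granulosa cells make the ligand in a membrane-bound and a shed form, oocytes carry the receptor, and binding sets off the PI3K and RAS branches inside the oocyte. The pair is known in that species for germ cell migration and survival and for the start of follicle growth, and outside the ovary for mast cells, blood stem cells and pigment cells.

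The study profiled oocytes and granulosa cells (GC) cut from sheep ovaries by laser capture microdissection (LCM). There were 10 arrays, 1 per group, with no replicate of any group. Oocytes of primordial (PDO), primary (PMO) and secondary (SECO) follicles and GC of the same stages (PDG, PMG, SECG) came from lambs killed at birth. Each RNA was a pool over 2 animals at the primordial and secondary stages and over 4 at the primary stage, amplified in 2 rounds and labelled with the Arcturus turbo kit, a protocol called P3. One ovine fetal ovary RNA (132 days post coitum) was labelled by P2 (2 rounds of amplification, then Affymetrix labelling), by P3, and by P1 (the standard Affymetrix protocol). A bovine fetal ovary RNA (8 months post coitum) was labelled by P1. No group carried a treatment or a mutation.

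Signals are MAS 5.0 values, scaled on each array to a mean of 100 after trimming. A probe set was called detected when its signal was at or above a limit set on each array, which lay between 45.8 and 74.2 on the LCM arrays and between 28.9 and 44.7 on the fetal ovary arrays. A signal under the limit is called undetected, which does not say that the transcript was absent.

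The capture labels were checked against marker genes. The 9 oocyte markers on the array summed to 8757, 8760 and 2942 on PDO, PMO and SECO, against 3371, 6024 and 4037 on PDG, PMG and SECG, and 7 of the 9 were detected on all 6 arrays. Oocyte marker probe sets thus gave signal on the GC arrays too, and whether oocyte RNA was its source was not tested. At the secondary stage the sum, most of it from ZP2, ZP3, ZP4 and KPNA7, was lower in the oocyte sample than in the GC sample. ZP2, ZP4, KPNA7 and GDF9 read lower on SECO than on SECG. ZP3 (750.5 against 682.9), NLRP5 (296.9 against 254.0) and MAEL, a piRNA pathway gene (407.5 against 57.9), read higher on SECO, as the labels have it. So did BMP15, undetected on both arrays, and SYCP3, detected on SECO only. The 14 GC markers on the array summed to 548, 777 and 1099 on PDO, PMO and SECO, against 1024, 1654 and 3189 on PDG, PMG and SECG. The largest on SECG were FST (776.5), INHA (617.5) and HSD17B1 (535.2). AMH, FOXL2, FSHR, CYP19A1 and IHH were undetected on all 6 LCM arrays. Of the 9 others, 3 read lower in oocytes at all 3 stages, while INHBA (333.5 against 252.5) and KRT18 (77.4 against 5.8) read higher on SECO than on SECG. The 8 stroma markers on the array summed to 16012, 4556 and 16325 on PDO, PMO and SECO, against 47606, 29806 and 13059 on PDG, PMG and SECG. Since amounts of RNA per cell and numbers of cells of a type cannot be told apart here, the fitted oocyte minus GC difference of KIT is given with and without the secondary stage. The pathway values and the correlations include that stage. None of the 3 mast cell markers on the array (FCER1A, HDC, TPSB2) was detected on any LCM array, with summed signals of 28 to 76 for oocytes and 42 to 106 for GC.

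In the ovine RefSeq annotation of assembly ARS-UI_Ramb_v3.0, KIT is a protein-coding gene with 3 transcripts whose next protein-coding neighbour is KDR, a VEGF receptor, and KITLG, with 6 transcripts, lies between TMTC3 and DUSP6. The array holds bovine probes. The only sequences at hand for either gene were the real-time PCR primers that the study designed in the 3′ UTR of ovine KITLG, shown because they mark the part of the ligand transcript chosen for a second assay, whose values were not analysed here.
KITLG up primer, 5′ to 3′: cacaggataactttgagtgc
KITLG down primer, 5′ to 3′: tgtgtatgtgtatgtactgtaagtgt
They are 20 and 26 bases long, and no base is set in capitals.

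KIT was detected on all 10 arrays by 1 of its 4 probe sets, Bt.26445.1.A1_at. Its signals were 603, 558 and 225 on PDO, PMO and SECO, and 319.5, 354 and 241 on PDG, PMG and SECG. On fetal ovary it read 397, 231 and 145 with ovine RNA under P2, P3 and P1, and 169.5 with bovine RNA under P1. The 2 highest values of all were those of primordial and primary oocytes, and both lay above every GC array, whereas SECO lay below all 3 GC arrays. The primordial and primary oocyte signals were 2.61 and 2.42 times that of ovine fetal ovary under the same protocol P3, and SECO was 0.975 times that value. The 3 GC signals were 1.38, 1.53 and 1.04 times it for PDG, PMG and SECG. With 1 array per group, the spread that would show which neighbours in this order differ is unknown.

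**Figure D1:**
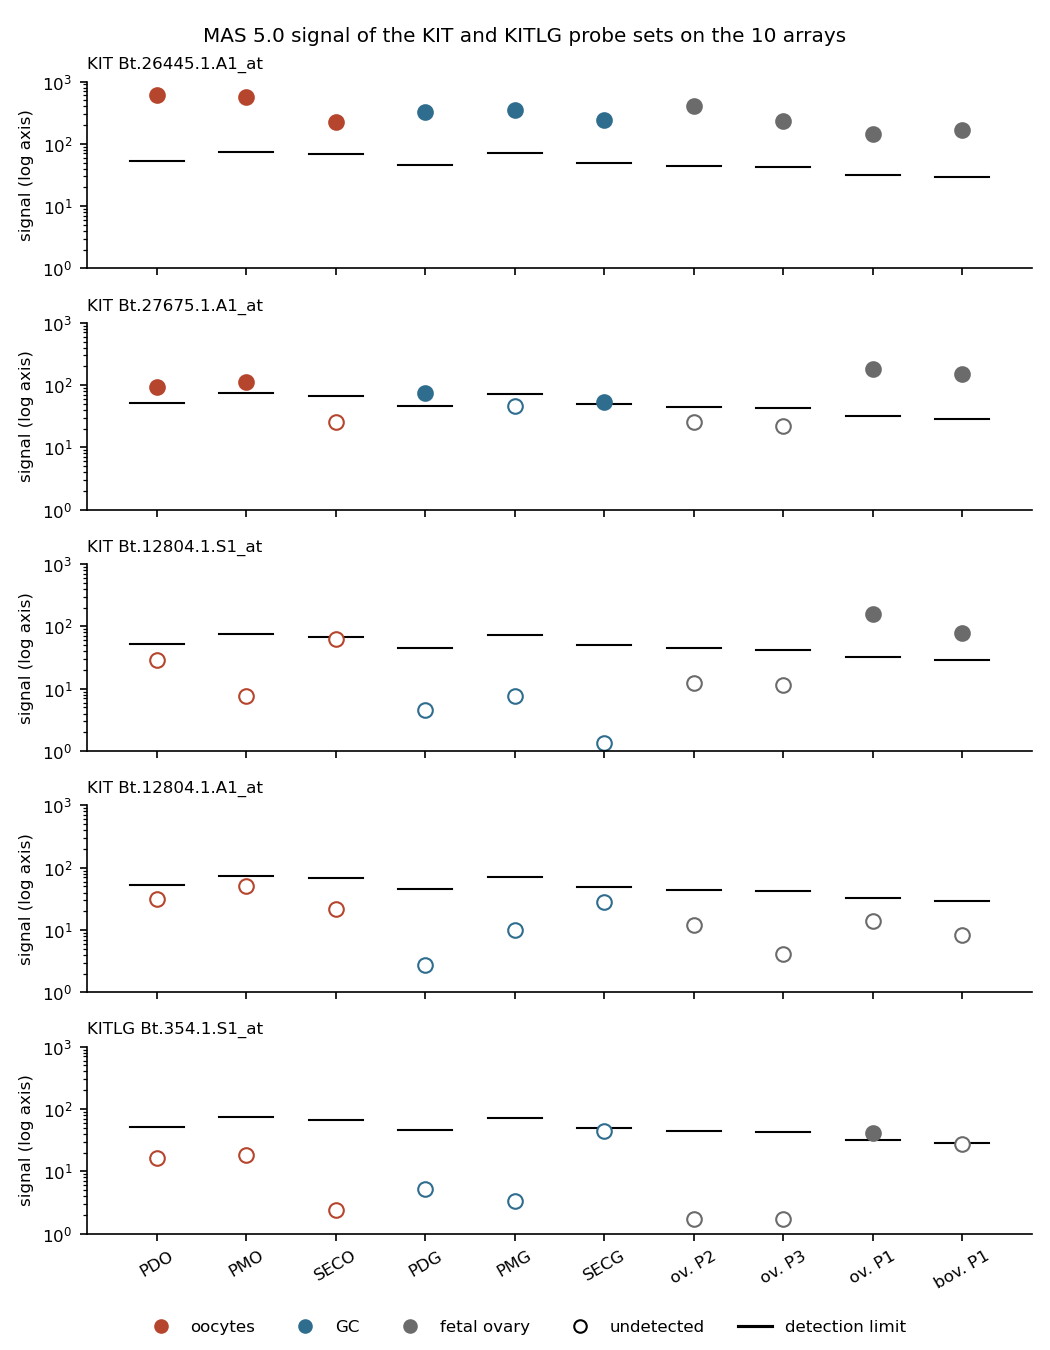
MAS 5.0 signal (log axis) of the 5 KIT and KITLG probe sets on the 10 arrays, with filled points at or above each array's detection limit (black line) and open points below it. Bt.26445.1.A1_at lay above the limit on every array, whereas KITLG passed it only on the ovine fetal ovary array labelled by P1.

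The other 3 KIT probe sets were dimmer on the captured cells. Bt.27675.1.A1_at read 93.2, 110.3 and 25.5 on PDO, PMO and SECO, and 75.5, 46.8 and 52.8 on PDG, PMG and SECG, and it was detected on 4 of these arrays, with SECO and PMG under the limit. On fetal ovary it read 25.6, 21.7 and 179 with ovine RNA under P2, P3 and P1, and 149.6 with bovine RNA, so that only the P1 arrays passed. Bt.12804.1.S1_at was undetected on all 6 LCM arrays, at 29.3, 7.77 and 63.9 on PDO, PMO and SECO and 4.57, 7.65 and 1.36 on PDG, PMG and SECG. On both P1 arrays it was detected, at 156 with ovine and 77.4 with bovine RNA. Bt.12804.1.A1_at, which shares its cluster number, was undetected on all 10 arrays, with signals of 21.4 to 50.6 for oocytes, 2.71 to 28.1 for GC and 4.1 to 14.0 on the fetal ovary arrays. The 4 probe sets of 1 gene thus gave 4 different detection patterns, on 10, 6, 2 and 0 of the 10 arrays. Which stretch of the KIT transcript each one reads, and which strand, is not given in the sources used here. An undetected probe set may thus be one that does not read the KIT transcript strand.

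The ligand was under the detection limit used here in every captured sample, and the study's own present calls were not used. The single KITLG probe set, Bt.354.1.S1_at, read 16.2, 18.2 and 2.37 on PDO, PMO and SECO, and 5.27, 3.39 and 43.7 on PDG, PMG and SECG. The highest of these, GC of secondary follicles, reached 0.876 of the limit of 49.8 on that array, and the other 5 reached at most 0.31 of theirs. In ovine fetal ovary KITLG read 1.7 under P2 and 1.7 under P3, both undetected, and 40.9 under P1, above the limit of 32.1. The LCM arrays were labelled by P3, under which KITLG was undetected in whole fetal ovary too, so by this limit no fold in KITLG can be given between oocytes and GC or between stages.

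To ask whether KIT differed between the compartments, the 3 stage pairs were compared. By Bt.26445.1.A1_at, the oocyte signal was 1.89 times the GC signal at the primordial stage, 1.57 times at the primary stage and 0.934 times at the secondary stage. As log2(signal + 20), the oocyte minus GC differences were 0.88, 0.63 and -0.09. For Bt.27675.1.A1_at they were 0.24, 0.96 and -0.68, but the last of these set a GC signal just above its limit against an oocyte signal under a higher limit, so no fold can be given. By signal alone, detected or not, both tested KIT probe sets read higher in oocytes at the primordial and primary stages and lower at the secondary stage, as did 12.6% of the 11642 probe sets detected on at least 1 LCM array. By the same reading neither was higher in oocytes at all 3 stages, as 17.7% of these probe sets were, or lower at all 3, as 17.1% were. Only for Bt.26445.1.A1_at were both signals of the secondary stage detected. The differences of the 3 undetected probe sets compare signals under the limit and are plotted only.

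**Figure D2:**
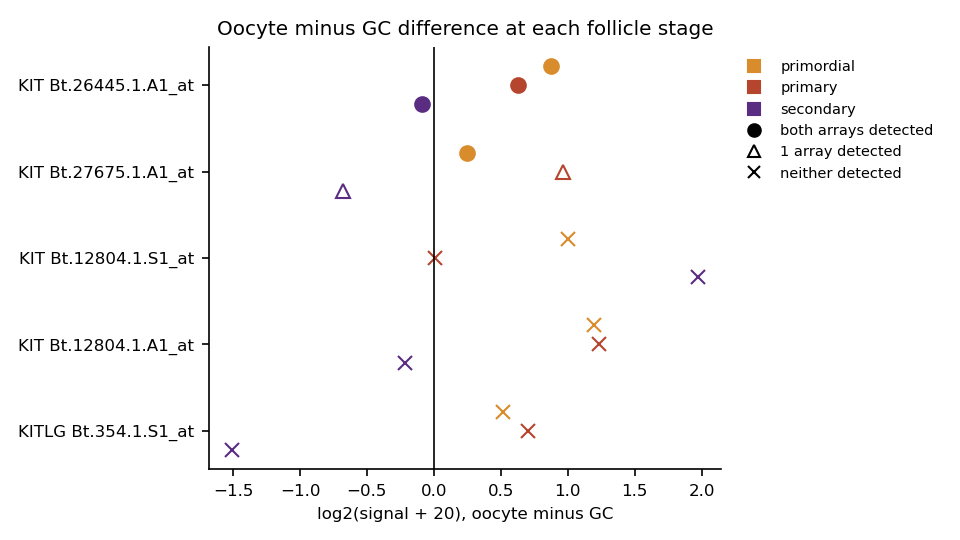
Oocyte minus GC difference in log2(signal + 20) for each KIT and KITLG probe set at 3 follicle stages, 1 pair of arrays per point; filled circles have both arrays detected, open triangles 1 and crosses neither. The only points with both arrays detected are the 3 of Bt.26445.1.A1_at (0.88, 0.63 and -0.09) and the primordial one of Bt.27675.1.A1_at (0.24).

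With the 3 stages as a term in a limma fit across the 11642 probe sets, the oocyte minus GC difference of KIT was 0.47 ± 0.33 (SE, 95% interval -0.31 to 1.25, 3 arrays each, limma Benjamini-Hochberg adjusted p = 0.614) by Bt.26445.1.A1_at. By Bt.27675.1.A1_at it was 0.18 ± 0.39 (95% interval -0.73 to 1.08, limma adjusted p = 0.889). Neither passed 0.05. No probe set of the array passed in this comparison (0.0% called), although 1295 had an unadjusted limma p under 0.05. Without the secondary stage the 2 differences were 0.75 (limma adjusted p = 0.448) and 0.60 (limma adjusted p = 0.525). Without the primary stage the second turned to -0.22.

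Across the stages, KIT was lowest in secondary follicles in both compartments by Bt.26445.1.A1_at. SECO read 225, against 603 on PDO and 558 on PMO, so that it was 2.68-fold and 2.48-fold dimmer. Of the 6234 probe sets detected on both PDO and PMO, 6.4% were at least 2-fold dimmer on SECO than on both. In GC, SECG read 241, against 319.5 on PDG and 354 on PMG, which is 1.32-fold and 1.47-fold dimmer, where 40.1% of the 6495 probe sets detected on both were dimmer on SECG than on both, by any size. By Bt.27675.1.A1_at, SECO was undetected and at least 1.38-fold dimmer than PDO and at least 1.63-fold dimmer than PMO. In GC that probe set read 75.5, 46.8 and 52.8 on PDG, PMG and SECG, so SECG was not the lowest by signal, although PMG was undetected.

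Over both compartments, the limma secondary minus primordial difference was -0.86 ± 0.41 (SE, 2 arrays each, limma adjusted p = 0.483) by Bt.26445.1.A1_at and -0.85 ± 0.47 (limma adjusted p = 0.535) by Bt.27675.1.A1_at. It depended on which secondary array was kept. Without SECO the values were -0.44 and -0.21, and without SECG they were -1.28 and -1.50. The primary minus primordial differences were 0.02 ± 0.41 (limma adjusted p = 0.997) and -0.16 ± 0.47 (limma adjusted p = 0.961). No probe set passed in either stage comparison (0.0% called in each), with 1325 and 762 at an unadjusted limma p under 0.05 for secondary and primary against primordial follicles.

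Markers of oocytes, GC and stroma were set beside KIT over these arrays. Of the 7 oocyte markers detected on all 6 LCM arrays, 6 were lower on SECO than on the average of PDO and PMO, and ZP3, a protein of the oocyte coat, read 750.5 on SECO against 2822 on PDO and 2720 on PMO. Of the 7, 6 were higher in oocytes than in GC at the primordial stage, 5 at the primary stage and 3 at the secondary stage. Their Pearson correlations with KIT Bt.26445.1.A1_at over the 6 arrays, which share amplification and scaling, ran from 0.43 for MAEL to 0.96 for ZP3. The 3 GC markers detected on all 6 arrays, of 14 on the array, had correlations with KIT of -0.85 to -0.65. This filter leaves out any marker undetected in 1 compartment. The GC markers left out ran from -0.75 for CDH2 to 0.80 for CYP19A1, the latter undetected on all 6. Of the oocyte markers left out, BMP15 had 0.07 and SYCP3 -0.35, each detected on 1 of the 6. Of the 5 stroma markers detected on all 6, none was higher in oocytes at the primordial or primary stage and 4 were at the secondary stage, with correlations of -0.82 to 0.08. The part of oocyte, GC or stromal RNA content in the KIT differences was not tested.

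**Figure D3:**
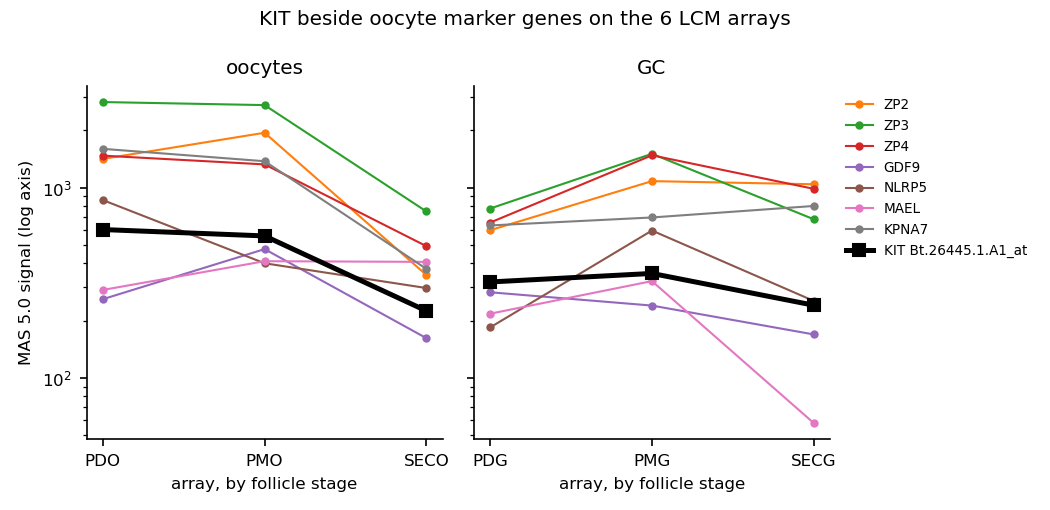
MAS 5.0 signal (log axis) of KIT Bt.26445.1.A1_at (black squares) and the 7 oocyte markers detected on all 6 LCM arrays, by follicle stage, with oocytes on the left and GC on the right. KIT read 225 on SECO against 603 on PDO, beside 750.5 against 2822 for ZP3, while MAEL did not show this drop.

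The KIT probe sets that passed the limit differed between the arrays of the same ovine fetal ovary RNA labelled by P2, P3 and P1. Without replicate arrays, an effect of the protocol cannot be told apart from variation between arrays, and the limits also differed. Bt.26445.1.A1_at was brighter after amplification, at 397 under P2 and 231 under P3 against 145 under P1, which is 2.74-fold and 1.59-fold. The other 2 KIT probe sets detected under P1 fell below the limit. Bt.27675.1.A1_at was at least 4.0-fold dimmer under P2 and at least 4.23-fold dimmer under P3 than under P1. Bt.12804.1.S1_at was at least 3.49-fold dimmer under P2 and at least 3.69-fold dimmer under P3 than under P1. For KITLG no fold bound can be given, since its P1 signal of 40.9 lay under the limits of 44.7 and 42.3 on the P2 and P3 arrays.

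Of the 4 member probe sets detected under P1, 3 were undetected under both P2 and P3, against 23.6% of the 11975 probe sets detected under P1. By the limits, 2 of the 4 were at least 2-fold dimmer under both, against 15.0%, and 1 was brighter under both, against 30.6%. KIT was 1 of the 230 genes that held both kinds, at least 2-fold dimmer and brighter, of the 1361 genes with 2 or more probe sets detected under P1 (16.9%). Over all probe sets detected, the median log2 difference was -0.17 for P2 minus P1 and -0.31 for P3 minus P1. Each protocol was run once, so these folds have no replicate check.

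**Figure D4:**
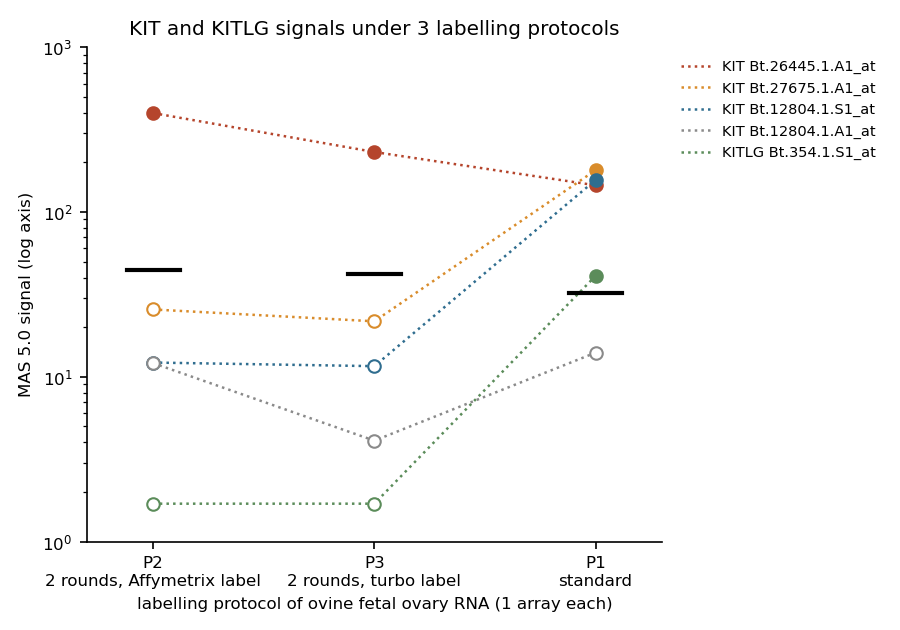
MAS 5.0 signal (log axis) of the 5 probe sets in 1 ovine fetal ovary RNA under protocols P2, P3 and P1, 1 array each, with filled points detected, open points undetected and black bars at the detection limits; dotted lines join the points of a probe set. Bt.26445.1.A1_at stayed above the limit under all 3 protocols, while Bt.27675.1.A1_at, Bt.12804.1.S1_at and KITLG passed it only under P1.

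Between species, under P1, the KIT signals lay close. Bt.26445.1.A1_at read 145 with ovine and 169.5 with bovine RNA, Bt.27675.1.A1_at 179 with ovine and 149.6 with bovine RNA, and the log2(signal + 20) differences, ovine minus bovine, were -0.20 and 0.23. Bt.12804.1.S1_at read 156 with ovine and 77.4 with bovine RNA, which is 2.02 times as signals and a difference of 0.85 on that scale. KITLG read 40.9 with ovine RNA and 27.0 with bovine RNA, just under the limit of 28.9, and was at least 1.42-fold brighter with ovine RNA. On that scale none of the 4 detected members was 2-fold apart (1 was, Bt.12804.1.S1_at, with a constant of 1 in place of 20, a floor at 20 or quantile normalization), against 12.3% of 14838 probe sets at least 2-fold brighter and 20.5% at least 2-fold dimmer with ovine than with bovine RNA. Species differs here together with animal and age, which cannot be told apart from it.

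Among 9892 other probe sets with 1 symbol that were detected on at least 1 array and varied enough, those most like KIT Bt.26445.1.A1_at over the 10 arrays were USP46, a deubiquitinating enzyme (Pearson r = 0.97), DKK3, a secreted protein of the Dickkopf family (r = 0.97), and OSER1 (r = 0.95). Over the 6 LCM arrays alone r was 0.98, 0.95 and 0.96 for USP46, DKK3 and OSER1. USP46 read 1019.5, 1055 and 365 on PDO, PMO and SECO, and 478, 502 and 325.5 on PDG, PMG and SECG, in the same order of stages as KIT in GC and with SECO lowest among the oocyte arrays. The KIT probe sets were less alike among themselves. Bt.26445.1.A1_at and Bt.27675.1.A1_at had r = 0.85 over the 6 LCM arrays and -0.14 over all 10. With Bt.12804.1.S1_at, undetected on all 6 LCM arrays, Bt.26445.1.A1_at had r = -0.08 over these 6 and -0.59 over all 10. With Bt.12804.1.A1_at, undetected on all 10 arrays, it had r = 0.445 and 0.501. Bt.27675.1.A1_at and Bt.12804.1.S1_at had r = -0.455 over the 6 and 0.489 over all 10. For Bt.12804.1.S1_at the most similar were MMS19, ASPH and BACE1 (r = 0.96, 0.96 and 0.95), each detected on 2 arrays.

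For Bt.27675.1.A1_at, the most similar were MEST (r = 0.92), VRK3 (r = 0.92) and IHQ (r = 0.92), of which IHQ was detected on all 10 arrays and MEST and VRK3 on 2 each. Over the 6 LCM arrays alone r was 0.93, 0.78 and 0.80 for MEST, VRK3 and IHQ. For KITLG the most similar were SLC25A12 (r = 0.94), CENPC (r = 0.90) and ZNF184 (r = 0.87). The KITLG correlations rest on signals that were undetected on 9 of the 10 arrays.

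Genes that act around and below the receptor were read from 8 lists with 104 genes, of which 54 had a probe set with their symbol and 40 were detected on at least 1 LCM array. None passed the oocyte against GC test (limma, 0.0% called over all probe sets). Of the 40, 24 had a higher and 16 a lower fitted value in oocytes, with a median log2 difference of 0.05, beside 51.4% higher and a median of 0.02 over all 11642. Of the 6 tested receptors and ligands related to KIT, none passed, 1 was higher and 1 lower in oocytes at all 3 stages, and the fitted value of CSF1 was 0.004 ± 0.32 (SE). CSF1R, the receptor of colony-stimulating factor and a member of the same class as KIT, read 197.6, 292 and 225 on PDO, PMO and SECO. On PDG, PMG and SECG it read 115, 232 and 45.5, the last under the limit, so that its fitted difference (0.97 ± 0.39 SE, limma adjusted p = 0.43) was taken in part against an undetected signal. PDGFRA, a receptor of platelet-derived growth factor and a stromal marker, had a fitted difference of -0.57 ± 0.31 (SE, limma adjusted p = 0.524). It read 18.0, 53.6 and 41.2 on PDO, PMO and SECO, and 48.0, 92.5 and 53.6 on PDG, PMG and SECG. Only the 3 GC signals passed their limits, but PMO and SECG had the same signal of 53.6 under limits of 74.2 and 49.8.

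Among the adaptors, GRB2, which links activated receptors to RAS, read 144.6, 96.0 and 162 on PDO, PMO and SECO. On PDG, PMG and SECG it read 78.8, 89.2 and 48.4, the last just under the limit (0.75 ± 0.36 SE, limma adjusted p = 0.481). SHC1, an adaptor that carries GRB2 to receptors, had a difference of -0.54, or -0.05 as the mean of its probe sets. Of the PI3K branch, 6 of 10 tested genes were higher in oocytes. The S6 kinase gene RPS6KB1 read 145.9, 108 and 217.5 on PDO, PMO and SECO, and 85.4, 36.5 and 37.5 on PDG, PMG and SECG, with PMG and SECG under the limit, so that the fitted difference of 1.29 (0.46 as the mean of its probe sets) was taken in part against undetected signals. BAD, a cell death protein held in check by AKT and detected on 1 oocyte array and 3 GC arrays, had a fitted difference of -0.62. Of the RAS branch, 5 of 11 were higher in oocytes, with RASA1, which switches RAS off, at 0.55 and NRAS at -0.55.

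Of the SRC, PLC and JAK-STAT branch, 3 of 6 were higher in oocytes, and YES1, a SRC family kinase, had a difference of -0.76. ADAM10, a protease that sheds proteins from the cell surface, was the 1 tested of its list, at -0.49. The 2 tested inhibitors, DOK2 and INPP5D, were each detected on 1 oocyte array and on no GC array. That array was PDO, where they read 66.1 and 59.2 against a limit of 52.2, and limits differ between arrays. The 3 transcription factors on the array (MITF, GATA1, ETV1) were undetected on all 6 LCM arrays.

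**Figure D5:**
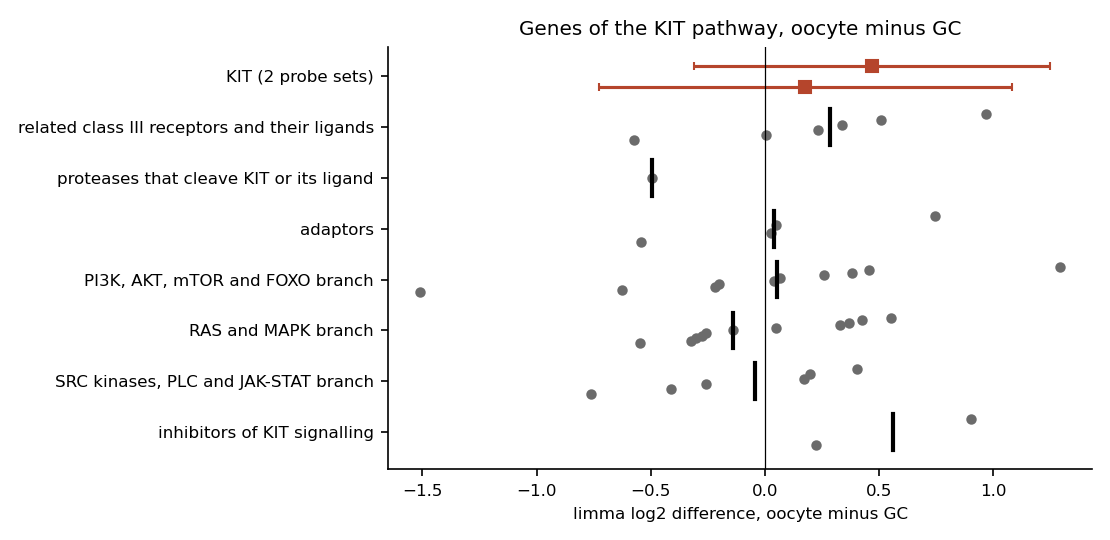
Limma log2 difference, oocyte minus GC, of the tested genes of each KIT pathway list (grey points, 1 probe set a gene, black bars at the list medians) and of the 2 tested KIT probe sets (red squares with 95% intervals). The points lie on both sides of 0 in the 4 signalling lists, and both KIT intervals include 0.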

How the data were processed

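MAS 5.0 signal intensities of 10 Bovine Genome Arrays were used as deposited; the authors extracted these intensity values with default parameters and scaled each array to a target of 100 (trimmed means were checked at 100.02 to 100.04). Genes were named through the platform annotation: 13292 probe sets had 1 symbol, 86 several and 10638 none, and 112 controls were left out. Pooled animals stand behind each LCM array. Present calls were not used here; instead, the share of present probe sets given for each array in the study's supplement set how many of its brightest probe sets count as detected, so limits differ between arrays.

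Differences were taken on log2(signal + 20). The 6 LCM arrays were fitted in limma 3.58.1 (R 4.3.3) with stage and compartment as terms, leaving 2 residual degrees of freedom, over 11642 probe sets detected on at least 1 LCM array, with Benjamini-Hochberg adjustment. The fit treats stages as repeats of a compartment and compartments as repeats of a stage; the arrays are not replicates. The fit was also run on data simulated without stage effects, which does not test the use of stages as repeats. Each pathway gene stands for its brightest probe set over the LCM arrays. Named from each list were members that passed, or, with none, the largest difference in each direction among those detected on at least 3 LCM arrays with 1 sign at all 3 stages; CSF1, the 2 inhibitors and the 3 transcription factors were named after their values were seen. Similar probe sets were ranked by Pearson r on the log2 scale among those with a log2 range of at least 1. Members and lists were chosen with earlier results of these data known. The number of arrays limits the precision. Other constants, a floor, quantile normalization, other filters, an intensity trend and leaving out stages or arrays were tried. Python 3.11.15, pandas 2.3.3 and numpy 2.4.6 were used.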

Additional observations from a re-analysis of the deposited data

Results flagged for a closer look

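The oocyte minus GC difference of KIT changed sign between stages, which was seen on 1 pair of arrays per stage and was not tested. For Bt.26445.1.A1_at it was 0.88 at the primordial, 0.63 at the primary and -0.091 at the secondary stage. For Bt.27675.1.A1_at it was 0.24, 0.96 and -0.68 at the same stages, with PMG and SECO under the detection limit, so that its sign at the secondary stage has no measured basis.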

How the results depend on the processing

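KIT Bt.26445.1.A1_at kept a positive oocyte minus GC difference under all 17 alternatives (0.27 to 0.75, limma adjusted p 0.448 to 0.934), and its secondary minus primordial difference stayed negative under all 14 (-1.28 to -0.44), as did that of Bt.27675.1.A1_at (-1.50 to -0.21). None passed 0.05. Many of the 17 and 14 alternatives could not move the estimate. For Bt.26445.1.A1_at, other filters, the intensity trend and no stage term left oocyte minus GC at 0.47. In that contrast, leaving out 1 array repeated the value without its stage (0.27, 0.39 and 0.75 for primordial, primary and secondary). Its secondary minus primordial difference stayed at -0.86 with the filters, the trend and without the primary stage, PMO or PMG. The 17 and 14 are thus not counts of separate checks. The oocyte minus GC difference of Bt.27675.1.A1_at turned to -0.22 without the primary stage, without PMO and without PMG, where the fit rests on the other 2 stage pairs. The primary minus primordial difference of Bt.26445.1.A1_at turned to -0.10 without PMO and -0.29 without PDG, and that of Bt.27675.1.A1_at to 0.43 without PMG; the cause was not tested. With an intensity trend 10 probe sets passed for oocyte minus GC and 67 for secondary minus primordial; in that second contrast 37 passed with a constant of 50, 18 without the primary stage, PMO or PMG, and 1 without PDO, KIT not among them.

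At a signal of at least 50, Bt.12804.1.A1_at was detected on 1 array, Bt.12804.1.S1_at on 3, with SECO (63.9) added, and KITLG on 0. At a signal of at least 100, Bt.27675.1.A1_at was detected on 3 arrays, Bt.12804.1.S1_at on 1 and KITLG on 0; among the brightest 30%, Bt.12804.1.S1_at was detected on 1 and KITLG on 0. Bt.26445.1.A1_at was detected on all 10 throughout. The median of the pathway genes was 0.058 with the mean of each gene's probe sets, against 0.050 with 1 probe set a gene. Under other constants, a floor or quantile normalization, the protocol differences of the 4 members detected under P1 kept their sign; with a constant of 1, a floor at 20 or quantile normalization, 1 member was at least 2-fold apart between species, against 0 with a constant of 20. The limits are single arrays, a platform of another species and double amplification on all LCM arrays.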
